A study of Homo sapiens with 23 samples.

Results

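The zinc finger genes of human chromosome 19 were followed in HCT116 colorectal cancer cells that lack argonaute (AGO) proteins. The genes were the protein-coding genes of chromosome 19 whose symbol is ZNF and a number, with a mean of at least 1 CPM (reads counted for a gene per 1e6 counts of the sample) over 15 RNAseq samples. There were 186 such genes among 249 candidates on the chromosome and 57875 genes listed in all. At the threshold, *ZNF626* had a mean of 1.07 CPM and *ZNF429* of 1.04 CPM, while *ZNF420* with 0.999 CPM and *ZNF233* with 0.981 CPM were just outside. Levels were compared between wild-type HCT116 cells and 4 knockout lines, the single knockouts of *AGO1* and of *AGO2*, the *AGO1/2* double knockout and the *AGO1/2/3* triple knockout, with 3 biological replicates each. The double line lacks *AGO1* and *AGO2* and the triple line lacks *AGO3* as well. The knockout lines were made from HCT116 cells by CRISPR gene editing, and the labels name no treatment. With 1 line per genotype, effects of a genotype and of its line cannot be told apart. The samples are bulk RNA, in which fewer cells that express a gene and less RNA per cell cannot be told apart.

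C2H2 zinc finger proteins bind DNA through tandem fingers, each held by a zinc ion, and they form the largest family of human transcription factors. Many carry a KRAB box, which recruits TRIM28 and through it the histone methyltransferase SETDB1 and HP1 proteins, and these silence chromatin, often at transposable elements. On chromosome 19 the genes stand in clusters that grew by tandem duplication. AGO proteins carry miRNAs to RNAs that pair with the miRNA seed. Because the finger-coding part of a zinc finger gene repeats the same short sequences, a seed that fits the repeated unit can find many matches in a single coding sequence.

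The repeats differed between the clusters, as the counts in the next paragraph show for the seeds of 2 miRNA families. The 4 gene sequences that follow were each chosen to hold a match and are examples only. In the miRNAs, from RefSeq (GRCh38.p14), capitals mark the seed, bases 2 to 8. In the gene sequences, read along the coding strand in GRCh38, capitals mark the match to a seed. All 4 windows lie in the coding part of the last exon, which is exon 4 of 4, or exon 8 of 8 in *ZNF426*.
miR-23a-3p: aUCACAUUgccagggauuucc
miR-181a-5p: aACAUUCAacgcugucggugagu
ZNF708 (chr19:21294359-21294388, minus strand): aaaaaccctacaAATGTGAagaatgtggca
ZNF91 (chr19:23362321-23362350, minus strand): gtaaatgtaaagAATGTGAaaaaacctttc
ZNF443 (chr19:12431480-12431509, minus strand): agagaaaccataTGAATGTaagcagtgttc
ZNF426 (chr19:9529356-9529385, minus strand): agaaaagtcattTGAATGTagtcactgtgg

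The match to the miR-23 seed is AATGTGA and the match to the miR-181 seed is TGAATGT. Both were counted along the coding strand of the canonical transcripts of GENCODE v44, where the 2 matches can overlap. An overlap in which the miR-23 match starts 2 bases after the start of the miR-181 match was found 40 times. Overlaps in the other order were not counted. A match is a string of letters and not a measured site. The 16 genes of 19p12 had a median of 12.5 miR-23 matches (6 to 22) and of 0 miR-181 matches (0 to 1). The 41 genes of 19p13 had the opposite pattern, with a median of 4 miR-181 and 0 miR-23 matches. In 19q13.1 the medians were 6 miR-181 and 0 miR-23 matches, and in 19q13.3 they were 0 miR-181 and 5.5 miR-23 matches. At least 1 miR-181 match was found in 74.2% of the 186 genes and at least 1 miR-23 match in 52.7%. Among the 220 ZNF genes on other chromosomes the shares were 48.2% and 41.4%, and among the protein-coding genes tested without such a symbol 12.1% and 14.2%. The genes encoded a median of 12 C2H2 fingers (1 to 31) by a pattern search, and 135 of 186 matched a KRAB box pattern.

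Per sample, the deposited counts summed to between 27709971 and 45271146 (median 30701840). *AGO1* RNA was at 108 to 146 CPM in wild-type samples and at 28.7 to 39.5 CPM in the 9 samples of lines that lack it. *AGO3* RNA fell from 112 to 51.8 CPM in *AGO1/2/3* knockout cells. *AGO2* RNA was at 407 ± 45.6 CPM in wild-type cells (SD, n = 3), 286 in *AGO2*, 339 in *AGO1/2* and 538 CPM in *AGO1/2/3* knockout cells, so that its RNA level does not mark the lines edited at this gene. The study checked the edits by sequencing and protein blots. *AGO4*, which was not edited, rose in *AGO1/2/3* knockout cells by 1.29 on the log2 scale (adjusted p = 0.000346). *EPCAM*, *KRT8*, *KRT18* and *KRT19* of the 6 epithelial markers were between 61.9 and 1218 CPM in the samples, *CDH1* ranged from 7.76 to 134 CPM, and *VIL1* was at or under 0.288 CPM. In the triple line *CDH1* fell by 3.51 and *EPCAM* by 1.74 on the log2 scale (from 213 ± 8.59 to 63.6 ± 1.51 CPM, SD, n = 3), while *KRT8* rose by 0.41. Of the 8 markers of other cell types, *COL1A1* was at 9.58 to 27.5 CPM and the 7 others were at or under 2.58 CPM.

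The zinc finger genes of chromosome 19 drew few reads. Their median was 8.89 CPM, not scaled for length, against 26.1 CPM for all protein-coding genes at 1 CPM or more, and 102 of the 186 were under 10 CPM. Per kilobase of transcript, *ZNF146*, whose protein is made of fingers with no KRAB box, was the highest with 49.8 CPM per kb over the 15 samples. *ZNF121* followed with 32.2 CPM per kb, and the median gene had 2.36. Counts were not whole numbers in all 15 samples for 112 of the genes, among them 14 of the 16 of 19p12. This held for *AGO1*, *AGO3* and *SETDB1* too, while the counts of *TRIM28* were whole in every sample. The share over all genes tested is not given here, so this is not read as a trait of the zinc finger genes. Estimated counts are not whole where reads that match several transcripts are divided between them, and the levels of such genes are uncertain to that extent.

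The question of the comparisons is how steady state RNA levels change as AGO genes are lost. Calls were made at an adjusted p of 0.05 or less by the quasi-likelihood test of edgeR, with p-values adjusted by Benjamini-Hochberg over 22842 genes, and SE stands for the standard error of a log2 change. In *AGO1/2/3* knockout cells 40 of the 186 genes (21.5%) were called higher and 24 (12.9%) lower than in wild-type cells. Over all genes tested, 20.3% were higher and 19.8% lower, and over protein-coding genes at 1 CPM or more 29.1% and 22.2%. The share of higher genes was thus near the first background and below the second, and the share of lower genes was below both. The median log2 fold change was 0.12, against -0.01 for all genes tested. The 759 other protein-coding genes of chromosome 19 at 1 CPM or more had 141 genes higher and 264 lower, with a median of -0.15. The 220 ZNF genes on other chromosomes had 43 higher and 54 lower, with a median of -0.03. The 9 zinc finger genes of chromosome 19 with related symbols (such as ZFP or ZSCAN) had 2 higher and 2 lower. Scaled by total counts alone rather than by TMM, the median of all genes moved to -0.15 and the split of the 186 genes turned to 25 higher and 37 lower, while their median stayed 0.13 above that of all genes, as with TMM. The summed level of the 186 genes was 2695 ± 37.5 CPM in wild-type and 2683 ± 68.2 CPM in *AGO1/2/3* knockout cells (SD, n = 3).

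**Figure D1:**
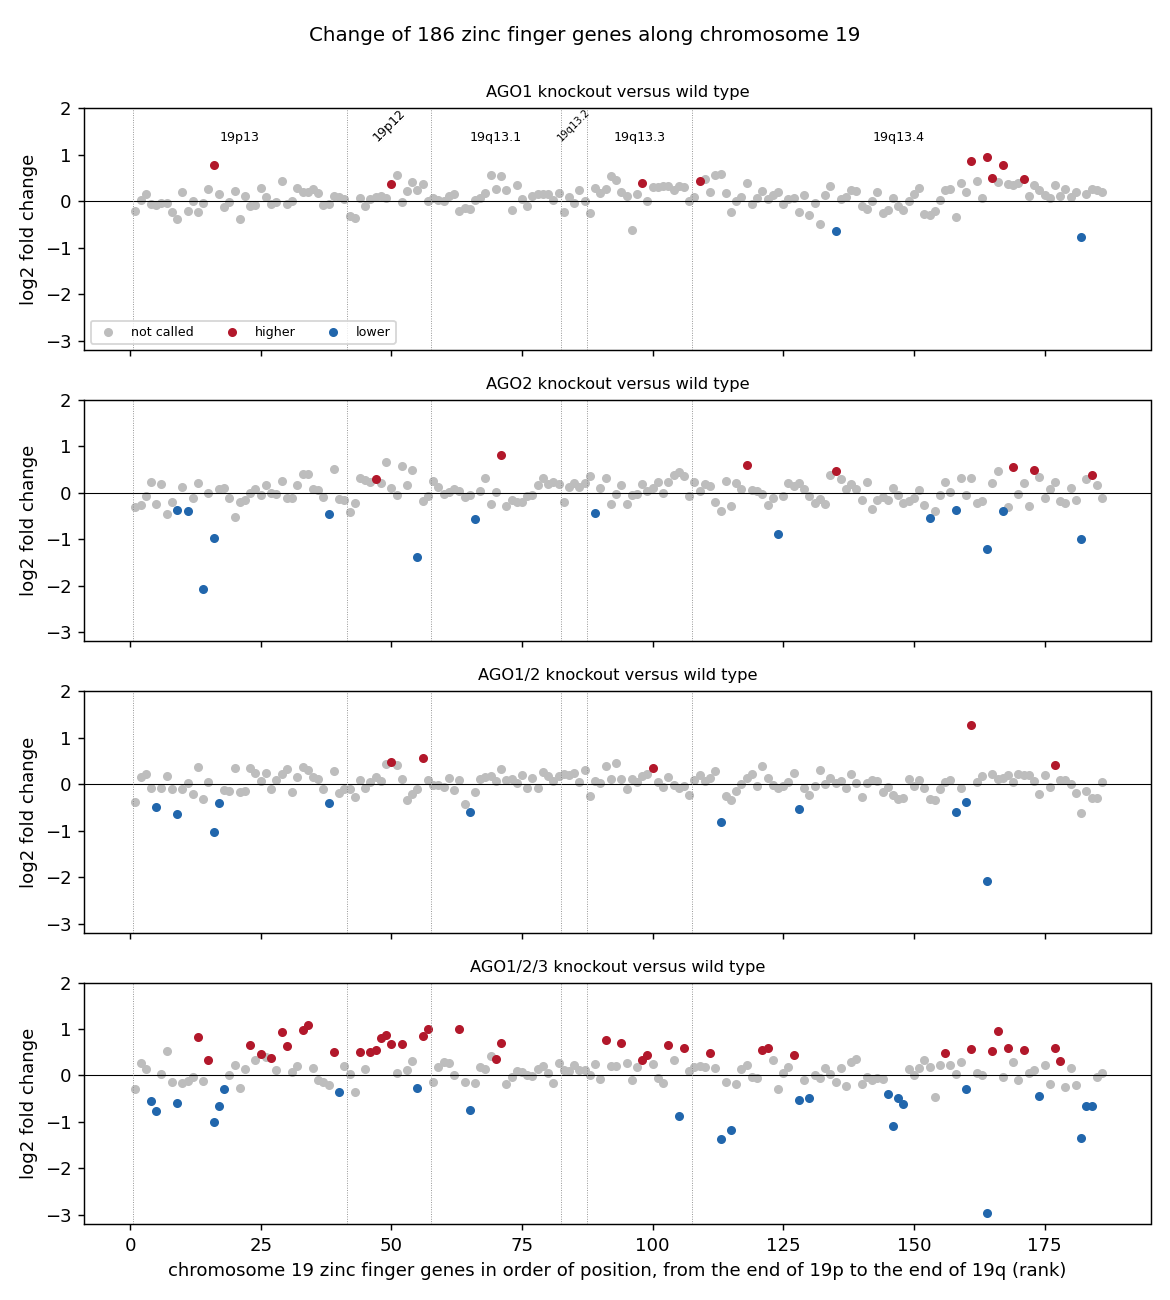
Log2 fold change (y axis) of the 186 zinc finger genes in their order along chromosome 19 (x axis, rank), in each knockout line against wild-type cells, with called genes in red (higher) and blue (lower) and dotted lines between the position classes. The *AGO1/2/3* panel holds 40 red and 24 blue points, the *AGO1* panel 9 and 2, and the lowest point, *ZNF550*, is at -2.95.

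*ZNF443* (ENSG00000180855, 19p13) rose most in *AGO1/2/3* knockout cells, from 4.23, 2.23 and 6.42 CPM in the wild-type samples to 9.11, 9.77 and 8.57 CPM. The log2 change was 1.09 (SE 0.27, adjusted p = 0.00452), and the wild-type samples spread more widely than those of the triple line. Without 1 sample at a time the change of *ZNF443* lay between 0.75 and 1.47, so its first rank is not firm. *ZNF254* (ENSG00000213096, 19p12) had 6.27, 6.25 and 6.78 CPM in wild-type cells and 13.22, 12.9 and 12.5 CPM in *AGO1/2/3* knockout cells. The log2 change was 1.001 (SE 0.10, adjusted p = 1.03e-06). The other 9 knockout samples lay between 5.83 and 7.22 CPM, so that the triple line stood apart from all others for this gene. Against *AGO1* knockout cells, *ZNF254* was 0.999 higher on the log2 scale (adjusted p = 8.87e-07) and against *AGO2* knockout cells 1.07 higher (adjusted p = 4.78e-07).

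*ZNF708* (ENSG00000182141, 19p12) had 13.19, 9.79 and 13.6 CPM in wild-type samples and 21.1, 21.2 and 21.2 CPM in the triple line, a log2 change of 0.80 (SE 0.14, adjusted p = 0.000366). *ZNF792* (ENSG00000180884, 19q13.1) had 4.89, 4.27 and 8.02 CPM in wild-type and 11.4, 12.6 and 10.3 CPM in *AGO1/2/3* knockout samples, a log2 change of 0.998 (SE 0.20, adjusted p = 0.000882). The counts of *ZNF792* were whole numbers in every sample. Neither gene overlapped between the 2 lines, and in both the second wild-type replicate was the lowest of its group. Among the other genes with the largest increases, *ZNF799* and *ZNF136* of 19p13 rose by 0.99 and 0.93, *ZNF530* of 19q13.4 by 0.97, and *ZNF738* and *ZNF675* of 19p12 by 0.87 and 0.85. Without the second wild-type replicate the change of *ZNF738* was 0.53. ZNF675 is also known as an inhibitor of TRAF6 signalling. *ZNF559-ZNF177*, a read-through gene that overlaps *ZNF559* and *ZNF177*, rose by 0.83, and the division of reads between the 3 is uncertain. *ZNF45* led 19q13.3, at 13.6 ± 1.91 CPM in wild-type cells and 23.0 ± 1.45 CPM in the triple knockout (SD, n = 3), and its log2 change was 0.76.

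The decreases reached further than the increases. *ZNF550* (ENSG00000251369, 19q13.4) fell from 2.16, 1.40 and 2.29 CPM in wild-type samples to 0.153, 0.280 and 0.339 CPM in *AGO1/2/3* knockout samples, by 2.95 on the log2 scale (SE 0.30, adjusted p = 1.71e-06). Of the wild-type level 13.19% was left, resting on 6.05 to 10.1 counts per sample. *ZNF581* (ENSG00000171425, 19q13.4) is a short gene with 4 fingers by the pattern search and no match to either seed. It had 13.9, 9.63 and 12.0 CPM in wild-type and 5.10, 5.78 and 5.80 CPM in *AGO1/2/3* knockout samples. The log2 change was -1.09 (SE 0.13, adjusted p = 8.27e-06) and the groups did not overlap. *ZNF615* fell by 1.37, *ZNF497* by 1.35 and *ZNF432* by 1.17 on the log2 scale, all 3 in 19q13.4 and under 3.5 CPM in each wild-type sample. *ZNF426* of 19p13 fell by 0.99, *ZNF296* of 19q13.3 by 0.87, *ZNF77* of 19p13 by 0.77 and *ZNF584* of 19q13.4 by 0.67.

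The 2 genes with the highest level per kb also fell. *ZNF146* (ENSG00000167635, 19q13.1) had 182, 235 and 191 CPM in wild-type samples and 112, 124 and 127 CPM in *AGO1/2/3* knockout samples, a log2 change of -0.74 (SE 0.11, adjusted p = 6.59e-05). *ZNF121* (ENSG00000197961, 19p13) had 254, 254 and 232 CPM against 148, 164 and 159 CPM, a log2 change of -0.65 (SE 0.09, adjusted p = 2.71e-05). Both were lower in *AGO1/2* knockout cells too, by 0.61 and 0.41 on the log2 scale, and neither was called in the single knockouts. The next 3 by CPM did not pass the test in the triple line. *ZNF562* had 91.0 ± 11.5 and 92.3 ± 3.27 CPM, *ZNF507* 77.7 ± 4.07 and 70.4 ± 4.33 CPM, and *ZNF264* 75.3 ± 12.8 and 94.5 ± 2.70 CPM in wild-type and *AGO1/2/3* knockout cells (SD, n = 3).

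**Figure D2:**
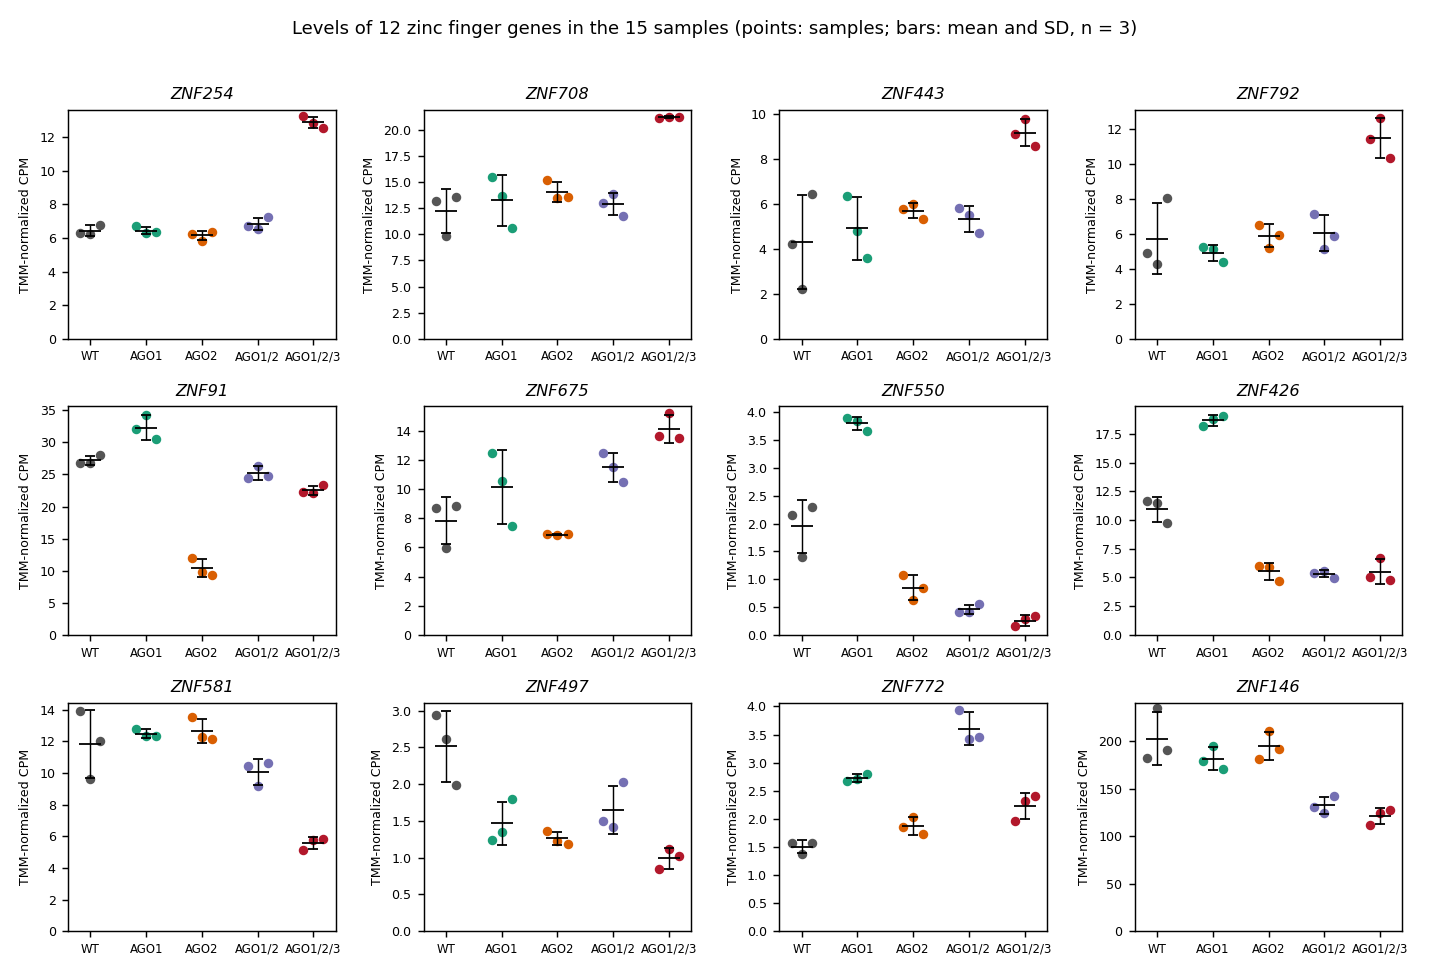
Level of 12 zinc finger genes in TMM-normalized CPM (y axis, from 0) in the 5 lines (x axis), with a point per sample and the mean and SD of 3 replicates. *ZNF254*, *ZNF708*, *ZNF443* and *ZNF792* are highest in the 3 *AGO1/2/3* knockout samples, *ZNF91* is lowest in *AGO2* knockout cells, at 9.40 to 12.0 CPM, and *ZNF550* is highest in *AGO1* knockout cells and lowest in the triple line.

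The genes were then divided by position, with the limits of the bands rounded to whole Mb. The triple knockout had 9 of the 16 genes of 19p12 (56.3%) higher and 1 (6.25%) lower, and their median log2 fold change was 0.50. The 9 were *ZNF254*, *ZNF738*, *ZNF675*, *ZNF708*, *ZNF100*, *ZNF493*, *ZNF431*, *ZNF85* and *ZNF714*, and the gene that fell was *ZNF91*. For comparison, 20.3% of all genes tested were higher and 19.8% lower, and 29.1% and 22.2% of protein-coding genes at 1 CPM or more. In 19p13 10 of 41 genes were higher and 7 lower (median 0.12), and in 19q13.3 6 of 20 were higher and 1 lower (median 0.23). In 19q13.1 3 of 25 were higher and 1 lower (median 0.09), and none of the 5 genes of 19q13.2 was called, at log2 fold changes of 0.10 to 0.23. In 19q13.4, the largest class, 12 of 79 were higher and 14 lower (median 0.03). The other protein-coding genes of 19q13.4 had 5 of 59 higher and 28 lower, with a median of -0.38. Genes of 1 class are neighbours and may share reads, so they are not taken as independent of each other, and no test was made over a class.

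**Figure D3:**
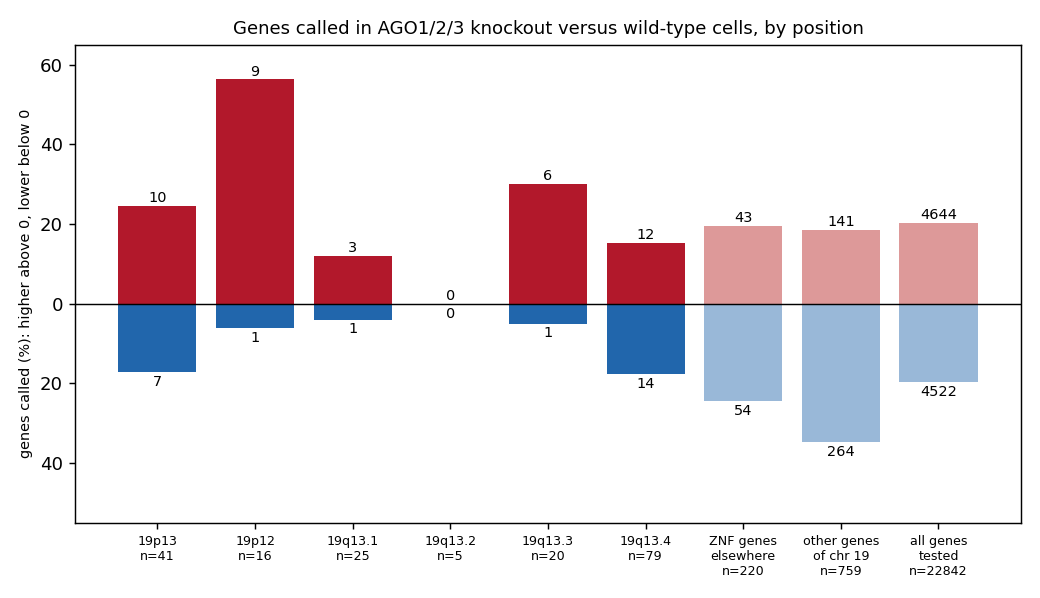
Percent of genes called higher (red, above 0) and lower (blue, below 0) in *AGO1/2/3* knockout against wild-type cells (y axis) for each position class and for 3 comparison sets in paler colours (x axis), with the number of genes at each bar. The bar of 19p12 stands for 9 of 16 genes, and the bars of all genes tested for 20.3% higher and 19.8% lower.

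The summed level of the 19p12 genes was 193, 156 and 194 CPM in wild-type samples and 238, 263 and 252 CPM in *AGO1/2/3* knockout samples, with no overlap. In *AGO1* knockout samples it was 219, 212 and 161 CPM, in *AGO2* knockout samples 197, 200 and 192 CPM, and in *AGO1/2* knockout samples 209, 184 and 185 CPM. The second wild-type sample was the lowest of its line for 12 of the 16 genes and the third *AGO1* knockout sample for 11 of 16. *ZNF100* shows this pattern, with 19.2, 12.7 and 20.7 CPM in wild-type, 21.2, 19.7 and 11.5 CPM in *AGO1* knockout and 26.03, 29.6 and 29.1 CPM in *AGO1/2/3* knockout samples. *ZNF254* and *ZNF431* varied little between wild-type samples, and *ZNF431* had 29.9, 29.3 and 29.6 CPM in wild-type and 41.7, 46.1 and 41.2 CPM in *AGO1/2/3* knockout samples. Without the second wild-type replicate, 6 of the 16 genes were higher and their median log2 change was 0.31. The call of *ZNF91* as lower in the triple knockout was lost in 6 of 21 alternatives.

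**Figure D4:**
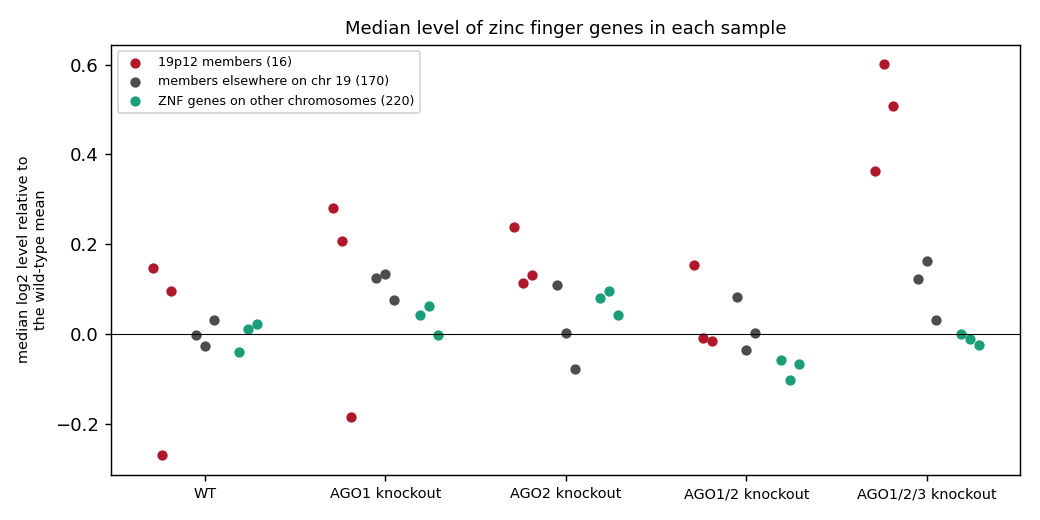
Median log2 level relative to the mean of the wild-type samples (y axis) in each of the 15 samples, by line (x axis), for the 16 genes of 19p12 in red, the 170 other zinc finger genes of chromosome 19 in grey and 220 ZNF genes on other chromosomes in green. The 19p12 median is 0.36 to 0.60 in the *AGO1/2/3* knockout samples and -0.27 in the second wild-type sample, and the grey points lie between -0.08 and 0.16.

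The clusters were also read as neighbourhoods, runs of genes without a gap over 0.5 Mb, a division made after the values were seen. In the triple knockout the run from *ZNF653* to *ZNF791* in 19p13 had 7 of 17 genes higher and 0 lower (median 0.33), and it holds *ZNF443*, *ZNF799* and *ZNF136*. The run from *ZNF414* to *ZNF846*, also in 19p13, had 2 of 13 higher and 4 lower (median -0.12), with *ZNF426* and *ZNF121* among the latter. In 19q13.3 the run from *ZNF576* to *ZNF180* had 5 of 17 higher and 0 lower (median 0.25). In 19q13.4 the run from *ZNF628* to *ZNF470*, which holds *ZNF581*, had 0 of 12 higher and 4 lower (median -0.08). The 2 largest of the 19 runs, also in 19q13.4, had 8 of 35 higher and 6 lower (*ZNF264* to *ZNF446*, median 0.05) and 4 of 32 higher and 4 lower (*ZNF175* to *ZNF331*, median 0.09). Over all 186 genes 21.5% were higher and 12.9% lower, and the runs named here were picked after their values were seen.

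Loss of *AGO3* in addition to *AGO1* and *AGO2* was read from the triple against the double line. Here 23 of the 186 genes were higher and 8 lower, against 11.9% and 10.0% of all genes tested (18.2% and 11.5% of protein-coding genes at 1 CPM or more), and with total counts only 13 were higher and 11 lower. *ZNF792* was higher by 0.92 (SE 0.20, adjusted p = 0.00361), *ZNF254* by 0.91 (SE 0.10, adjusted p = 8.14e-06) and *ZNF530* by 0.85 on the log2 scale. *ZNF581* fell by 0.86, from 10.4, 9.14 and 10.6 CPM in *AGO1/2* knockout samples (SE 0.13, adjusted p = 0.000233), *ZNF432* by 0.84 and *ZNF497* by 0.74. In 19p12 3 genes were higher, *ZNF254*, *ZNF708* and *ZNF431*, and none lower, with a median of 0.40. Leaving out 1 sample at a time gave 2 to 5 higher genes there and medians of 0.28 to 0.47, with 5 higher without the second wild-type or the third *AGO1* knockout replicate, and 6 were higher with only the 6 samples compared. Leaving out the second *AGO1/2* knockout replicate lowered the number of higher genes from 23 to 6.

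In *AGO1/2* knockout cells 5 genes were higher and 11 lower than in wild-type cells, where 8.37% and 8.35% of all genes tested were called (11.4% and 10.7% of protein-coding genes at 1 CPM or more). The median was 0.05, and scaling by total counts gave 2 higher and 17 lower. *ZNF772* (ENSG00000197128, 19q13.4) rose most, from 1.57, 1.37 and 1.57 CPM in wild-type to 3.94, 3.41 and 3.46 CPM in *AGO1/2* knockout samples, a log2 change of 1.26 (SE 0.14, adjusted p = 2.46e-05). It was higher in *AGO1* knockout cells by 0.86 and in *AGO1/2/3* knockout cells by 0.56, and it was lower in the triple than in the double line by 0.70 (adjusted p = 0.00183). *ZNF675* and *ZNF493* of 19p12 rose by 0.55 and 0.47. *ZNF550* fell by 2.08, *ZNF426* by 1.04 and *ZNF615* by 0.81 on the log2 scale. The calls of *ZNF675* and *ZNF615* in this line were lost in 14 and 13 of 21 alternatives. Among the 5 genes called higher in the double knockout, 4 were higher in the triple line, and 9 of the 11 lower genes were lower there. Both comparisons use the same wild-type samples. The overlap of calls over all genes tested is not given here, so that of these genes is not read as particular to them.

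Loss of *AGO1* alone gave 9 higher and 2 lower genes, where 3.17% and 5.5% of all genes tested were called (2.76% and 7.19% of protein-coding genes at 1 CPM or more), with a median of 0.11. With total counts only 5 were higher and 5 lower. *ZNF550* rose from 2.16, 1.40 and 2.29 to 3.89, 3.84 and 3.67 CPM, a log2 change of 0.96 (SE 0.22, adjusted p = 0.0135). *ZNF134* of 19q13.4 rose from 12.3, 12.6 and 12.6 to 21.5, 23.0 and 19.8 CPM, a log2 change of 0.78 (SE 0.11, adjusted p = 0.000511). The 2 genes that fell were *ZNF497*, by 0.78, and *ZNF525*, by 0.64, both in 19q13.4, and these calls were lost in 5 and 4 of 21 alternatives.

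Loss of *AGO2* alone gave 7 higher and 14 lower genes, against 8.55% and 10.8% of all genes tested (12.9% and 11.3% of protein-coding genes at 1 CPM or more), with a median of 0.01. With total counts only 1 was higher and 20 were lower, and DESeq2's Wald test gave 12 and 13. The file headers of the *AGO2* knockout samples name another quantification mode ("quasi") than those of the other lines, and mode and genotype cannot be told apart. *ZNF91* (ENSG00000167232, 19p12) encodes 31 fingers by the pattern search, and its protein is known to silence SVA retrotransposons. *ZNF91* had 26.8, 26.8 and 28.04 CPM in wild-type samples and 12.0, 9.84 and 9.40 CPM in *AGO2* knockout samples. The log2 change was -1.39 (SE 0.10, adjusted p = 9.79e-07). The other lines kept far higher levels of *ZNF91*, with 31.99, 34.3 and 30.5 CPM in *AGO1*, 24.5, 26.4 and 24.8 CPM in *AGO1/2* and 22.3, 22.04 and 23.3 CPM in *AGO1/2/3* knockout samples. *ZNF91* in the *AGO2* knockout minus that in the double knockout was -1.28 (SE 0.10, adjusted p = 6.41e-07) and minus that in the triple knockout -1.11 (adjusted p = 4.76e-07). *ZNF177* fell by 2.08 (SE 0.70, adjusted p = 0.0486), with 0.00, 0.903 and 0.633 CPM in *AGO2* knockout samples, and this call was lost in 15 of 21 alternatives. *ZNF550* fell by 1.20. *ZNF850*, *ZNF480* and *ZNF551* rose by 0.82, 0.59 and 0.56, calls that were lost in 3, 11 and 12 of 21 alternatives. Without the second wild-type replicate the changes of *ZNF480* and *ZNF551* were 0.38 and 0.36. Without that replicate, edgeR's test called 0 genes higher in this line, with 6 at an unadjusted p under 0.05.

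Across the 4 knockout lines 107 of the 186 genes were called in none, 54 in 1 line, 19 in 2, 4 in 3 and 2 in all 4. The same counts over all genes tested are not given here, so these are not read as a trait of the 186 genes. No gene was called in the same direction in all 4. *ZNF426* (ENSG00000130818, 19p13) was 1 of the 2, with 11.6, 11.5 and 9.71 CPM in wild-type, 18.1, 18.8 and 19.1 CPM in *AGO1*, 5.98, 5.95 and 4.71 CPM in *AGO2*, 5.41, 5.55 and 4.97 CPM in *AGO1/2* and 5.05, 6.73 and 4.74 CPM in *AGO1/2/3* knockout samples. It was thus higher without *AGO1* and lower in the 3 other lines, with no overlap with wild-type cells. *ZNF550*, the other, was likewise higher without *AGO1* and lower in the 3 other lines, with 1.07, 0.625 and 0.836 CPM in *AGO2* and 0.416, 0.414 and 0.553 CPM in *AGO1/2* knockout samples. The 3 lower lines had similar levels of *ZNF426*, at log2 changes of -0.98, -1.04 and -0.99, while those of *ZNF550* were -1.20, -2.08 and -2.95.

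Levels were compared with the seed matches in the coding sequences. In *AGO1/2/3* knockout cells, 20.3% of all genes tested were higher and 19.8% lower, and 29.1% and 22.2% of protein-coding genes at 1 CPM or more. The 34 genes with 6 or more miR-23 matches had 13 genes higher and 1 lower, with a median log2 fold change of 0.21. The 64 genes with 1 to 5 matches had 11 higher and 8 lower (median 0.13), and the 88 genes with no match had 16 higher and 15 lower (median 0.05). The 16 genes of 19p12 are all among the 34. Outside 19p12, 18 genes had 6 or more matches, of which 4 were higher and 0 lower (median 0.16). On other chromosomes, 15 ZNF genes had 6 or more matches, with 9 higher and 1 lower (median 0.52), against 22 higher and 33 lower of 129 with none (median -0.04). Those with 1 to 5 matches are not counted here, so no graded rise is read from these classes. Among the 9 higher genes, *ZNF107*, *ZNF117*, *ZNF273* and *ZNF680* all lie on chromosome 7, where *ZNF92*, with 13 matches, was not called. Genes on other chromosomes share libraries too, and no test was made over these classes. Across the 186 genes, which share libraries and may share reads, Spearman's correlation of the change with the number of matches was 0.15 in *AGO1/2/3* knockout cells. It was 0.14 in *AGO2* and 0.08 in *AGO1* and in *AGO1/2* knockout cells. For miR-181 matches it was 0.08 in *AGO1/2/3* knockout cells, where the 57 genes with 6 or more of them had 10 higher and 7 lower (median 0.15). The classes of matches were set after the values were seen. *ZNF91*, with 22 miR-23 matches, fell in *AGO2* and *AGO1/2/3* knockout cells, and *ZNF254*, with 12, rose in the triple line alone among the 4 comparisons with wild-type cells.

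**Figure D5:**
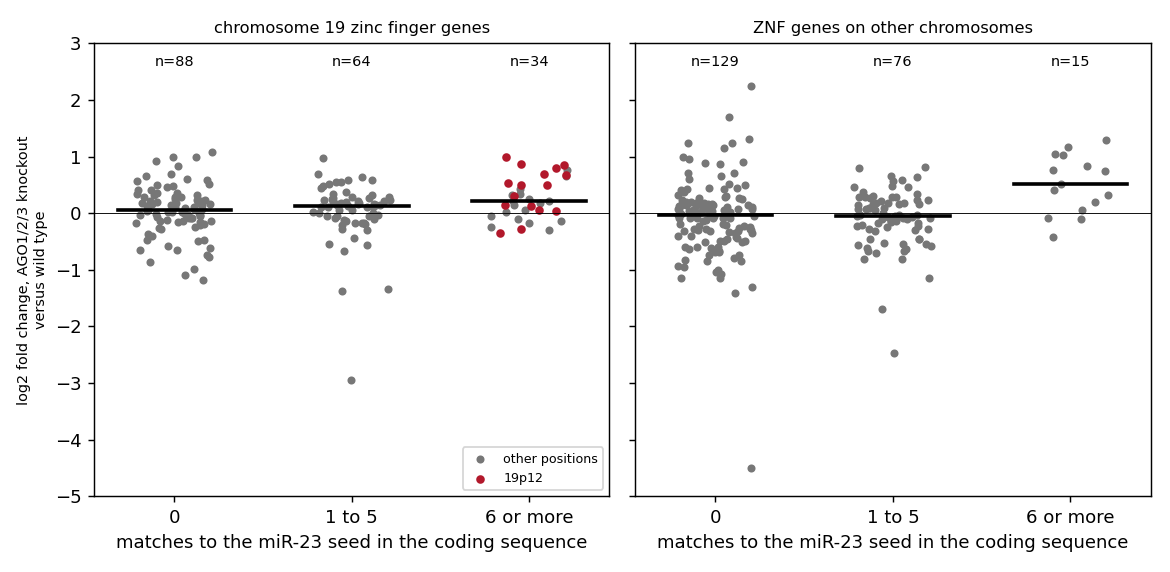
Log2 fold change in *AGO1/2/3* knockout against wild-type cells (y axis) by the number of matches to the miR-23 seed in the coding sequence (x axis), for the 186 zinc finger genes of chromosome 19 (left, 19p12 in red) and 220 ZNF genes on other chromosomes (right), with a point per gene and a bar at the median. The medians for 6 or more matches are 0.21 on the left and 0.52 on the right.

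The 135 genes with a KRAB pattern had 29 higher and 14 lower in *AGO1/2/3* knockout cells (median 0.14), and the 51 without had 11 higher and 10 lower (median 0.00). The pattern matched all 16 genes of 19p12 but 2 of the 20 of 19q13.3, with 1 of 17 in the run from *ZNF576* to *ZNF180*. These classes thus follow position, and they are classes of the pattern and not of genes with and without a KRAB box. A KRAB box of another sequence would be missed, and the 51 genes are not shown to lack one. Genes with 10 to 14 fingers had 22 of 75 higher and 6 lower, those with under 10 fingers 7 of 54 higher and 11 lower, and those with 15 or more 11 of 57 higher and 7 lower. Over all genes tested 20.3% were higher and 19.8% lower. Across the 186 genes Spearman's correlation of the change with the number of fingers was 0.09. The machinery through which KRAB proteins silence was taken as a list of 18 genes, of which the triple knockout had 6 (33.3%) higher and 1 lower. Of protein-coding genes at 1 CPM or more 29.1% were higher and 22.2% lower. Other settings were tried on this list after the data were seen, and scaled by total counts alone, 5 were higher and 4 lower. *CBX5*, an HP1 protein, rose by 1.08 (SE 0.14, adjusted p = 1.86e-05), from 312 ± 61.6 to 660 ± 37.5 CPM (SD, n = 3). *UHRF1* and *DNMT1*, which maintain DNA methylation, rose by 0.93 and 0.68, *CBX1* by 0.85, *ATRX* by 0.42 and *PPHLN1* by 0.31, and *CHD3* fell by 0.40. The second wild-type sample stood apart for several of these, with *UHRF1* at 138, 55.4 and 133 CPM, *DNMT1* at 245, 126 and 208 CPM and *CBX1* at 183, 76.8 and 189 CPM in wild-type samples. Without it the log2 changes were 0.59 for *UHRF1*, 0.42 for *DNMT1* and 0.51 for *CBX1*, and 3 genes of the list were higher (*CBX5*, *CBX1* and *ATRX*). Without the third *AGO1/2/3* knockout replicate 3 were higher as well. *TRIM28* had 306 ± 71.6 and 275 ± 8.29 CPM and *SETDB1* 59.1 ± 3.26 and 53.4 ± 1.03 CPM in the 2 lines, and neither passed the test. The list had 0 higher and 0 lower genes in *AGO1*, 2 and 1 in *AGO2*, and 0 and 1 in *AGO1/2* knockout cells. The shares of protein-coding genes at 1 CPM or more were 2.76% and 7.19%, 12.9% and 11.3%, and 11.4% and 10.7% in the same order.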

How the data were processed

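RNA of 15 samples (wild-type HCT116 and 4 knockout lines, 3 biological replicates each) was sequenced by the authors with a stranded total RNA kit after removal of ribosomal RNA. Another 8 samples of the series, from eCLIP, were not analysed here. Reads were filtered, aligned to hg38 with STAR and quantified with Salmon by the authors. The submitters' processing notes give STAR 2.5.3a and Salmon 0.11.0, while the methods give other versions. The deposited values are estimated counts per gene, not scaled for depth, and 30.8% to 33.8% of the values in a sample were not whole numbers. Where single zinc finger genes were counted as whole or not, a tolerance of 0.01 was used. The step from transcripts to genes is not given in the sources used here.

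Estimated counts were rounded to whole numbers. After filterByExpr and TMM normalization, edgeR (4.0.16, R 4.3.3) was fitted to all 15 samples together, with a coefficient per line and the quasi-likelihood test, and Benjamini-Hochberg adjustment over 22842 genes. The biological coefficient of variation was 0.152. CPM for the choice of genes is the count divided by the sample's total, and levels in the text are TMM-normalized CPM. Symbols, positions and coding sequences are those of GENCODE v44 on GRCh38, and 57167 of 57875 identifiers matched. C2H2 fingers were counted in the translated coding sequences by the spacing of their cysteines and histidines. DESeq2 (1.42.0), other scalings, filters and samples, and the model with a replicate block were alternatives. The scripts were tested on simulated data. A two-sided exact permutation test between 2 lines of 3 samples cannot reach a p below 0.1.

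The genes and lists were chosen with earlier results of these data known. Named were the 10 genes each way with the largest change among called genes without overlap in *AGO1/2/3* knockout cells, the 3 each way in the other comparisons, the leading gene each way of each position class, the 5 highest in level, the 2 genes on each side of the threshold, genes called the same way in the 4 knockout lines, the KRAB partners and the *AGO* genes. Other genes named in the text were chosen after their values were seen. Differences between knockout lines were also fitted after the values were seen.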

Additional observations from a re-analysis of the deposited data

Results flagged for a closer look

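There were 9 differences between knockout lines that were singled out because a gene was called higher in one line and lower in another, both against the same wild-type samples. Each difference was fitted in the edgeR model. The choice by opposite calls in the same samples made it nearly certain that these differences would pass. Their adjusted p-values are therefore descriptions and add no support to the calls. *ZNF550* differed between *AGO1* and *AGO2* knockout cells by 2.16 on the log2 scale (SE 0.23, adjusted p = 2.10e-05), between *AGO1* and *AGO1/2* knockout cells by 3.04 (SE 0.27) and between *AGO1* and *AGO1/2/3* knockout cells by 3.91 (SE 0.29, adjusted p = 5.84e-08). *ZNF426* differed by 1.75, 1.81 and 1.76 in the same 3 comparisons, with adjusted p of 1.06e-06, 4.64e-07 and 1.31e-07. *ZNF134* was higher in *AGO1* than in *AGO2* knockout cells by 1.18 (SE 0.11, adjusted p = 5.61e-06). *ZNF525* was lower in *AGO1* than in *AGO2* knockout cells, with a difference of -1.12 (SE 0.16, adjusted p = 0.000311). *ZNF324B* of 19q13.4 was higher in *AGO2* than in *AGO1/2/3* knockout cells by 1.04 (SE 0.13, adjusted p = 9.97e-06), with 7.81, 8.47 and 8.28 CPM against 3.96, 4.13 and 3.83 CPM. The quantification mode named for the *AGO2* knockout samples differs from that of the other lines, and its part in the 5 differences that use those samples cannot be told apart from the genotype. The other 4, of *ZNF426* and *ZNF550* between *AGO1* knockout cells and the double and triple lines, use none of them.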

How the results depend on the processing

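With total counts only, the numbers of higher and lower genes became 5 and 5 without *AGO1*, 1 and 20 without *AGO2*, 2 and 17 in the double knockout, 25 and 37 in the triple knockout, and 13 and 11 in the triple against the double line. The medians became 0.0211, -0.11, -0.0420, -0.0183 and 0.0339, where the median of all genes was -0.10, -0.14, -0.08, -0.15 and -0.06. DESeq2's Wald test called 16 genes higher in *AGO1* and 12 in *AGO2* knockout cells. With only the 6 samples compared, 3 were higher and 0 lower in *AGO1* (5 lower at an unadjusted p under 0.05), 0 higher and 6 lower in *AGO2* (12 higher at an unadjusted p under 0.05), and 1 higher and 6 lower in the double knockout. With no filter on low counts, 3 were higher in *AGO1/2* knockout cells. Leaving out 1 sample at a time gave 4 to 13 higher and 0 to 2 lower genes in *AGO1*, 0 to 12 and 7 to 15 in *AGO2*, 2 to 6 and 7 to 13 in the double and 28 to 41 and 18 to 26 in the triple knockout, and 6 to 25 and 5 to 12 in the triple against the double line, with medians of 0.0809 to 0.16, -0.07 to 0.0299, -0.0357 to 0.0545, 0.07 to 0.12 and 0.04 to 0.09. The samples whose absence moved a count by over 1.5 times were, for *AGO1*, its replicates 1 and 2 (5 and 4 higher, 1 lower each) and each wild-type replicate (0, 1 and 1 lower, with 7 at an unadjusted p under 0.05 for the 0), for the triple against the double line replicates 2 and 3 of *AGO1/2* (6 and 12 higher), the 3 of *AGO1/2/3* (10, 9 and 9 higher) and replicates 2 of *AGO1* and *AGO2* (13 and 15 higher), for *AGO1/2* its 3 replicates (2, 2 and 3 higher), the 3 of *AGO1/2/3* (2 higher each), wild-type replicate 2 (3 higher) and *AGO2* replicate 3 (2 higher), and for *AGO2* 12 of the 15 samples (0 higher without its replicate 2 or wild-type replicate 2, with 17 and 6 at an unadjusted p under 0.05, 1 or 2 without its replicates 1 and 3, wild-type replicate 1, *AGO1/2* replicate 2 or any of *AGO1/2/3*, 4 without *AGO1/2* replicate 1, 11 without wild-type replicate 3 and 12 without *AGO1* replicate 3). In *AGO1/2/3* knockout cells no sample did. The 19p12 genes, looked at after their values were seen, had 6 to 9 higher in *AGO1/2/3* knockout cells, and medians of 0.31 to 0.54, without 1 sample. Replicate numbers did not pair the samples (mean correlation of same-numbered deviations -0.00669, other pairs 0.00333), and a model with the replicate number as a block gave 8 and 2, 5 and 12, 6 and 10, 39 and 21, and 21 and 8 higher and lower genes in the same order. Of 46 called results of named genes 17 lost the call in at least 1 alternative, and the only change of sign was that of *ZNF562*, not called in *AGO1/2/3* knockout cells (log2 fold change 0.02). It was -0.12 with total counts only, -0.00670 with no filter on low counts, -0.0345 with only the 6 samples compared, and between -0.0662 and 0.10 without 1 sample. Genes near 1 CPM rest on few counts, which limits what can be seen there.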
